A study of Mus musculus with 8 samples.

Results

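Foxa2 sites kept at both ages are places on the mouse genome where the transcription factor Foxa2 was listed as bound in liver of young and of old animals, and where the corepressor enzyme Hdac3 was listed at neither age. Chromatin immunoprecipitation with sequencing (ChIP-seq) mapped both proteins in liver of wild-type C57BL/6 mice, an inbred laboratory strain, at 3 months (young) and 21 months (old). There were 8 libraries, 2 for each protein and age, and 1 list of binding sites represents each group. A site of the old Foxa2 list was counted as kept when it overlapped a site of the young Foxa2 list by at least 1 bp and overlapped no site of the young or old Hdac3 list. This held for 2482 sites, out of 28196 sites in the 4 lists. Kept sites were thus chosen by measured values, the listed positions of Foxa2 and Hdac3 sites at both ages.

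The labels name no genetic change and no drug for any group. The chromatin came from snap-frozen liver, a rabbit antibody served for Hdac3 and a rabbit antiserum for Foxa2, and the labels do not say whether the libraries of a group came from separate animals. Liver is a mixture of hepatocytes and other cells, so each list is an average over the tissue. Sites are named by their position in the mm9 build as the lists gave it, and no gene names are attached because no annotation of that build was used here. The labelled tissue could therefore not be checked against its marker genes. The files give no read depth. Since each group has a single list, values carry no replicate error and age could not be tested. The 95% intervals, exact binomial for shares and from binomial order statistics for medians, treat sites as independent and cover counting over sites only.

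Foxa2 is a winged-helix (forkhead) protein that can bind its DNA motif in closed chromatin and helps other factors gain access to it. In liver it works beside factors such as Hnf4a and Cebpa and takes part in the control of glucose, lipid and bile acid genes. Hdac3 removes acetyl groups from histones as the enzyme of the NCoR and SMRT corepressor complexes, which nuclear receptors bring to DNA. The kept sites are thus stretches listed as bound by Foxa2 at both ages with no listed Hdac3 on them.

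The kept sites were a minor part of the old Foxa2 list and a larger part of the shorter young list. They made up 19.3% of the 12834 old sites (95% interval 18.7 to 20.03), and the 2489 young sites they overlapped made up 37.7% of the 6604 young sites (36.5 to 38.9). Of the 2690 old sites that overlapped a young site, 92.3% were kept, and the other 208 were left out because an Hdac3 site lay on them. Matching was nearly 1 to 1: each young site met a single kept site, and 7 kept sites covered 2 young sites each. These counts follow from the rule itself and are given as a description.

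Most of the best-supported Foxa2 sites were kept, except at the very top of the young list. Here rank is the order by the authors' q-value, with ties in order of their fold enrichment, and rank 1 has the lowest q. Of the first 1000 sites, 79.5% of the old list (76.9 to 82.0) and 80.5% of the young list (77.9 to 82.9) were kept. Of the first 100, 72% of the old list but 35% of the young list (25.7 to 45.2) were kept. A site can miss the rule through Hdac3 and still be listed at both ages. The 208 sites of both ages with Hdac3 had a median young rank of 409, with a lower quartile of 53.75. Of these, 24 were among the first 100 of both lists. How many of the first 100 young sites missed the rule through Hdac3 was not counted. Ranks at the 2 ages went together only in part. Spearman's rho across the 2482 kept sites was 0.47, 470 of them were among the first 1000 of both lists, and 22 among the first 100 of both. The points are sites that share 2 lists, so this is a description of the lists. The q-value was at most 0.05 in both lists at 2174 kept sites and at most 0.01 in both at 953.

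**Figure D1:**
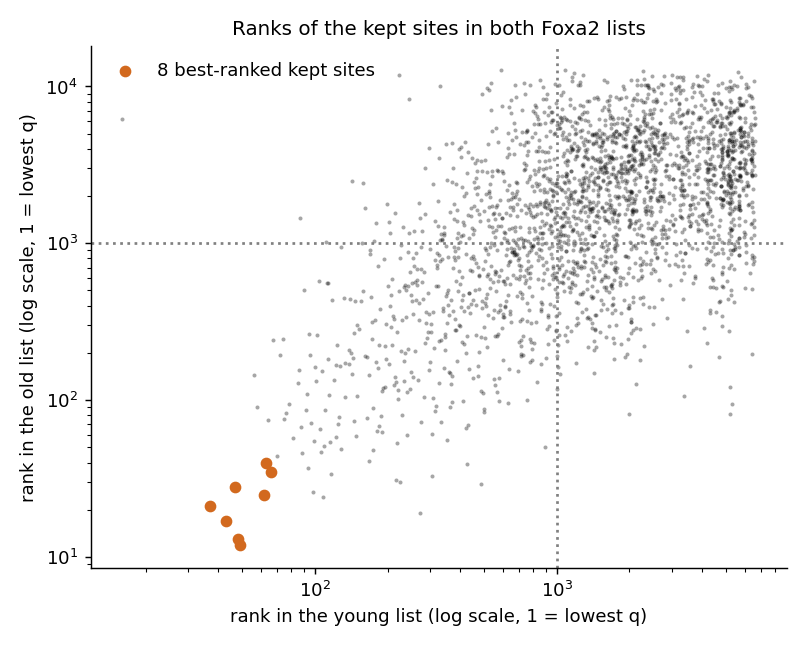
Rank of each of the 2482 kept sites among young (x axis) and among old Foxa2 sites (y axis), both on log scales, with rank 1 for the lowest q. Each point is a site, the 8 orange points are the best-ranked kept sites, and the dotted lines at rank 1000 enclose 470 sites at the lower left.

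The 8 kept sites with the best poorer rank stood in the first 66 of both lists. The first lay at chr4:137423263-137423455 in the old list, with an authors' enrichment of 202 (rank 21), and measured 193 bp there and 166 bp in the young list, where its enrichment was 47.0 (rank 37). At chr6:116585483-116585907 the old site was 425 bp wide (enrichment 57.3) and the young site 335 bp (20.8), and their centres differed by 1 bp. The site at chr8:129133735-129134047 was 313 bp wide in old and 277 bp in young liver. The extents of these 3 sites thus differed by less than 1.5 times between the ages.

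A broader old site lay at chr16:93591284-93592030. It covered 747 bp in the old list, where it was rank 13, but 239 bp in the young list, where it was rank 48, and the centre of the young site lay 195 bp to the higher side. On the same chromosome, chr16:90780115-90780413 held the best-ranked kept site of the old list, rank 12 with a q of 5.81e-30. It measured 299 bp there and 223 bp among the young sites. The other 3 lay at chr15:7117952-7118415 (464 bp old, 418 bp young), chr18:65385758-65386073 (316 bp old, 217 bp young) and chr9:53164733-53164977 (245 bp old, 197 bp young). All 8 sites were wider in the old list, by 1.11 to 3.13 times. The Hdac3 site nearest to any of the 8, in the young list, lay 2812 bp from the broad site on chromosome 16.

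Kept sites were wider in the old than in the young list at 2356 of 2482 places (94.9%, 94.0 to 95.8). Their median width was 160 bp in the old list (quartiles 127 and 203) and 80 bp in the young list (quartiles 45 and 105). The lists as a whole differed too, with medians of 100 bp (old) and 40 bp (young), as did old-only sites (90 bp) and young-only sites (21 bp). Site by site, the old site of a kept pair was 2.05 times as wide as the young one in the median (95% interval 1.99 to 2.13). At 1847 kept sites (74.4%) the old site was at least 1.5 times as wide, and at 33 (1.33%) the young site was. Over all 2690 sites of both ages, Hdac3 sites included, these shares were 70.7% and 2.71%. Width went with q in both lists: across kept sites Spearman's rho between width and q was -0.80 in the old and -0.81 in the young list. The depth behind each list is unknown, so depth and age cannot be told apart here.

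**Figure D2:**
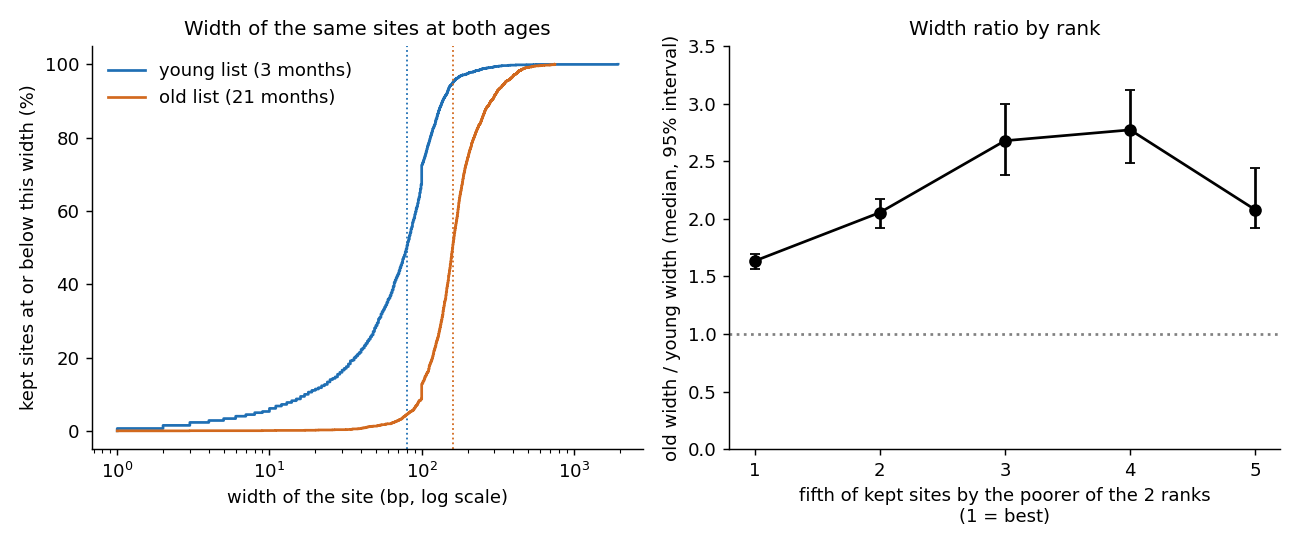
Left, share of the 2482 kept sites (y axis, %) at or below each width (x axis, bp, log scale) for young and old liver, with dotted lines at the medians of 80 and 160 bp. Right, median old width over young width with its 95% interval in 5 equal groups of kept sites ordered by the poorer of their 2 ranks; all 5 medians lie above 1, from 1.63 to 2.77.

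Old sites were wider over the whole range of ranks, and the ratio of widths was smallest among the best sites. The kept sites were put in 5 groups of 496 or 497 by the poorer of their 2 ranks. Since width went with q, this order also sorts sites by width. The young list has 6604 sites, so a poorer rank beyond that is always an old rank. Differences between the groups are thus partly set by the grouping and are given as a description. The median ratio was 1.63 (1.56 to 1.69) in the best group. It was 2.05, 2.68 and 2.77 in the next 3 and 2.08 (1.92 to 2.44) in the last. In the best group the median widths were 208 bp (old) and 127 bp (young), and in the last 100 bp and 51 bp, so that the difference in bp was smaller in the last group. The share of sites wider in the old list went from 99.4% in the best to 83.5% in the last group.

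Sites of both ages that carried Hdac3 were not wider in the old list as a rule. At the 208 such sites the old site was 0.98 times as wide as the young one in the median (0.957 to 1), and 87 of them (41.8%, 35.04 to 48.8) were wider in the old list. Their intervals did not overlap those of the kept sites. Their median widths were 190.5 bp (old) and 166.5 bp (young). Their median enrichment was 8.65 in the old and 5.11 in the young list, against 28.1 and 13.4 at kept sites. A wider site has more chance to meet an Hdac3 site, so width and the rule are not independent, and no test of this difference was made.

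The old site reached beyond the young site by the same median at both ends, 39 bp at the lower and 39 bp at the higher position. At 1959 kept sites (78.9%, 77.3 to 80.5) the young site lay wholly inside the old one, at 35 the old site lay inside the young one, and at 488 the sites crossed. Centres were close: their median distance was 18 bp, 2128 sites (85.7%) had centres within 50 bp, and 13 had them over 200 bp apart. The young centre lay at the higher position at 1241 sites and at the lower position at 1222, so both directions were about equally common.

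**Figure D3:**
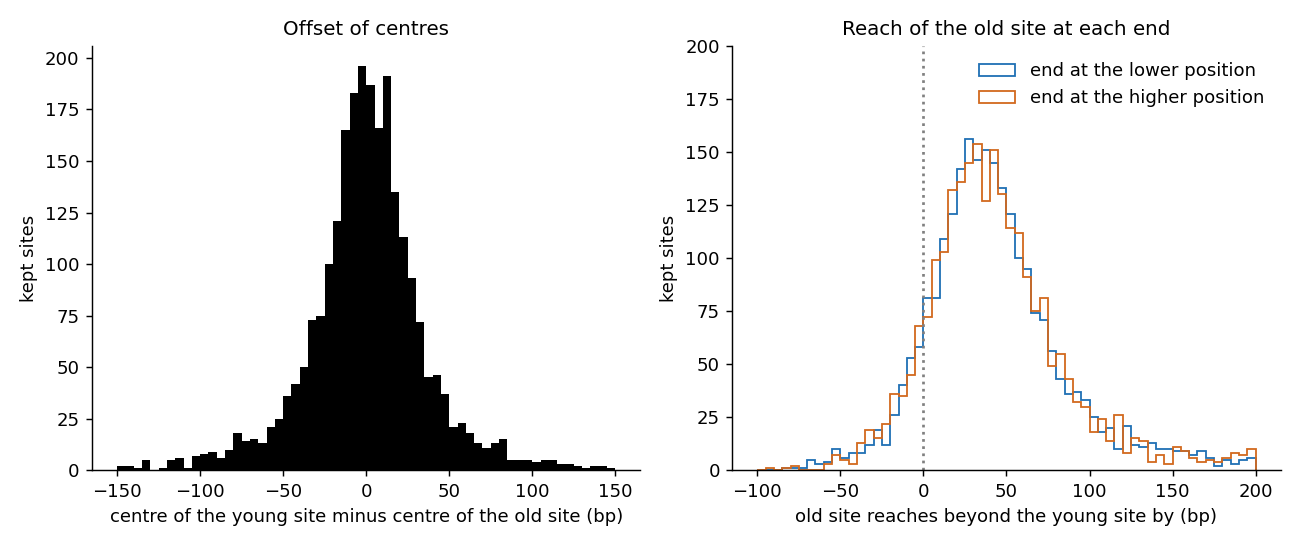
Left, number of kept sites by the offset of centres (young minus old, bp); 30 sites beyond 150 bp are not drawn. Right, number of kept sites by how far the old site reaches beyond the young site at each end (bp; negative where the young site reaches further); 73 sites per end lie outside the range drawn, and both outlines have their median at 39 bp.

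The overlap was 1 bp at 20 kept sites and at most 10 bp at 177. Of the 20 the best by old rank was chr3:89109583-89110014, 432 bp wide in the old list with an enrichment of 53.2 and rank 106, which covered a young site of a single base at rank 3372. The next were chr8:88128189-88128357 (169 bp, old rank 951) and chr15:96834875-96835265 (391 bp, old rank 1081), each over a young site of 1 bp. Just outside the rule, the old site chr6:31166515-31166602 began 1 bp after a young site of 10 bp ended. At chr5:149862935-149863103 (169 bp, rank 571) the gap was 2 bp, and at chr1:172358379-172358498 (120 bp, rank 3606) it was 3 bp. In all, 12 old sites without Hdac3 missed a young site by 10 bp or less.

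Kept sites came mostly from the wide sites of each list. Of the old sites up to 60 bp wide 1.81% were kept, of those from 121 to 180 bp 38.2%, and of the wider ones 48.2% (45.9 to 50.6). In the young list 12.4% of the sites up to 15 bp wide were kept, 69.9% of those from 61 to 120 bp and 62.3% of the wider ones. Narrow sites were still present on the young side: 397 kept sites (16.0%) were under 30 bp wide in the young list, against 9 (0.363%) in the old list. Both shares were below those of the whole lists, 42.0% of young and 8.06% of old sites. A wider site also has more room to overlap another, and the rule selects on overlap.

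A single width recurred. Exactly 100 bp was the most frequent width of kept sites in both lists, with 4.07% of old sites and 5.32% (132) of young sites, whereas 15 and 41 were 1 bp narrower or wider. The old-only sites had the same feature, with 812 of 10144 (8.005%) at 100 bp, while 18 of 3914 young-only sites (0.460%) and 22 young and 13 old Hdac3 sites did. Only 3 kept sites were 100 bp wide in both lists. Per the labels' protocols, fragments with inserts of about 100 bp were selected; their part in the recurring width was not tested.

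At 118 kept sites the young site was wider than the old one. How many of these had an Hdac3 site close by was not counted. At 5 kept sites the young site, though not the old one, overlapped an Hdac3 site, and the old site was narrower at all 5, with ratios from 0.0756 to 0.497. A young site that meets Hdac3 where the old one does not must reach past an end of the old one. The choice of these 5 sites thus favoured a narrower old site. The widest of them was on chromosome X, where the young site chrX:166427779-166429730 of 1952 bp (rank 16) held an old site of 259 bp (rank 6237). The others lay at chr8:19784608-19784698, chr16:3254751-3254817, chr6:3132464-3132506 and chr8:19984226-19984345. The old site on chromosome 6 was 43 bp wide against 569 bp in the young list, and the second site on chromosome 8 was 120 bp against 546 bp. These 5 sites met the rule by the narrow extent drawn in the old list, and they were the kept sites whose young counterpart broke it.

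At 7 kept sites the old list held 1 broad site where the young list held a pair. The old sites were 451 to 690 bp wide and stood at ranks 69 to 689. The 2 young sites under each lay 210 to 385 bp apart. The best-ranked was chr11:109872179-109872868, 690 bp wide in the old list with an enrichment of 16.9, over young sites of 120 bp (chr11:109872266-109872385, enrichment 14.3) and 99 bp (chr11:109872770-109872868, enrichment 17.2). At chr12:16625373-16625852 the old site of 480 bp covered young sites of 100 bp and 105 bp. At chr16:47171880-47172338 both young sites under the old site of 459 bp were narrow, with 5 bp and 42 bp.

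Some kept sites had very different standing at the 2 ages. Among the first 1000 old sites, 89 kept ones stood after rank 3000 in the young list, and among the first 1000 young sites 107 kept ones stood after rank 3000 in the old list. At chr1:193617813-193617982 the old site had rank 772 and an enrichment of 47.2, and the young site had rank 6530 and an enrichment of 2.63 (q 0.114). At chr16:93733290-93733459 the ranks were 814 and 6522. In the other direction, chr16:35047963-35047979 was 17 bp wide with rank 12796 in the old list, and its young site was 150 bp wide with rank 590. The list lengths differ, so these ranks show where a site stood in each list and not a change of binding.

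Kept sites lay on all autosomes and on X. The old list had no site on Y, and the 5 young sites there were not kept. On the other chromosomes kept sites made up between 14.96% (chromosome 15) and 24.8% (X) of the old list, and between 12.1% (X) and 50% (chromosome 19) of the young list. Chromosome X stood apart in the young list. Of its 224 young sites 12.1% were kept (8.10 to 17.1), against 38.6% of the 6375 autosomal ones (37.4 to 39.8). In the old list X had 109 sites, of which 24.8% were kept (17 to 34), against 19.3% on autosomes (18.6 to 19.99). Over the span of listed sites X held 1.66 kept sites per 10 Mb, and autosomes held from 7.54 (chromosome 14) to 15.7 (chromosome 19). The number of X copies in the animals was not used here, and its part in this was not tested.

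**Figure D4:**
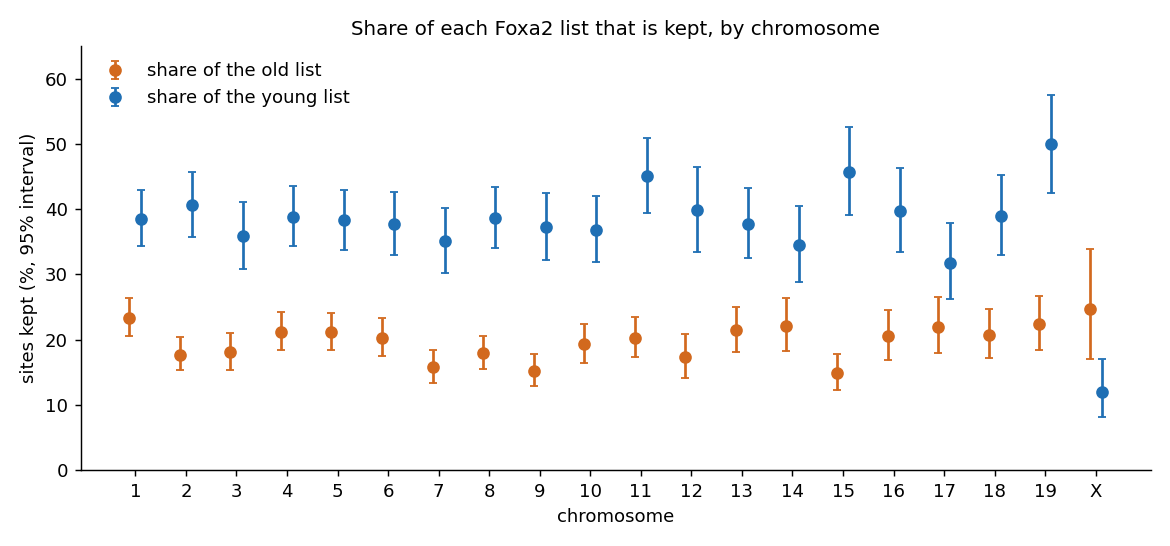
Share of the old list (orange) and of the young list (blue) that is kept (y axis, %, with exact binomial 95% intervals), for each chromosome (x axis). The shares of the young list are the higher ones on every autosome, where the old list has more sites. On X, which has more young than old sites, the order turns, with 12.1% of the young and 24.8% of the old list. Both shares count nearly the same kept sites, so their order follows the number of sites in each list.

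The authors' enrichment of kept sites was 28.1 in the median in the old list (quartiles 16.5 and 44.1) and 13.4 in the young list (quartiles 7.79 and 25.5). The 2 values of a site were only loosely related, with a Spearman's rho of 0.20 across kept sites. The same values recurred within a chromosome. On chromosome 8, 10 young sites had an enrichment of 10.6 and 11 had 11.9, while 7 old sites had 20.8, 10 had 24.3, 7 had 27.8 and 7 had 31.2. For each chromosome and list the largest step was taken of which many values were whole multiples, a measure chosen after the values were seen. Such multiples, to within the rounding of the deposited values, made up 40.9% of the old values (38.9 to 42.8) and 55.8% of the young values (53.9 to 57.8) of kept sites. They were not particular to kept sites. On chromosome 8 they made up 54.5% of all old and 52.9% of all young values, against 45.5% and 52.4% at kept sites. In the old list kept sites had the lower share on every chromosome but 14. In the young list they had the higher share except on chromosomes 8, 18 and X. For a step fixed in advance the tolerance alone would cover 0.292% (old) and 0.680% (young) at kept sites. The step was picked from the deposited values themselves, so these are not chance levels for it.

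This step differed between some chromosomes, and between the ages. On chromosome 8 it was 1.74 in the old and 0.662 in the young list, and on chromosome 4 it was 1.61 and 0.609. Over the 20 chromosomes with kept sites the ratio of old to young step ran from 1.33 (chromosome 10) to 3.20 (X). The size of a step, and with it the range of this ratio, rests on the rule. With a share of 0.8 in place of 0.9 the young step on chromosome 4 was 1.22 and the old step there stayed at 1.61. The young step on chromosome 8 was also larger while the old was the same. At 0.9 the step on chromosomes 11 and 17 was 0.882 and 0.886 in the old list. It was 0.340 and 0.383 in the young list. Kept sites on these 2 chromosomes also had the lowest median enrichments, 16.7 and 16.8 in the old list and 8.85 and 9.19 in the young list. On the others the medians ran from 18.9 to 53.2 and from 11.98 to 32.5. Kept sites of chromosomes 11 and 17 had median widths of 154 and 155 bp in the old list and 83 bp in the young list, near those of all kept sites. In the old list these were at the low end of the autosomes, whose medians ran from 154 to 169 bp. Chromosomes 14, 18 and 19 also had 155 bp there. On chromosome 10 the old step was 0.871 (1.74 with a share of 0.8) and the median enrichment of kept sites 31.4. On chromosome 2 the old step was 0.979 (1.96 with a share of 0.8). Its median of 18.9 was the lowest in the old list after chromosomes 11 and 17. These chromosomes were picked after the values were seen, and whether step and median go together was not tested. Whether enrichments can be compared across chromosomes or ages is not given in the files, and the part of the step in the difference between 28.1 and 13.4 was not tested.

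Among kept sites, young enrichments over 200 stood almost only at narrow young sites. At 42 kept sites the young enrichment was over 200, and 41 of these young sites were under 30 bp wide, with a median of 4 bp. The highest, 2239, was a single base inside chr10:107480714-107480950, where the old site was 237 bp wide with an enrichment of 26.7. In the old list 6 kept sites were over 200, among them the best-ranked site on chromosome 4 (202) and the single base chr11:88345802-88345802 (1411), where the young site was 36 bp wide with an enrichment of 28.3. In the young list the highest enrichments of kept sites thus stood at sites of a few bases. Most narrow sites were not high: 41 of the 397 kept sites under 30 bp in the young list were over 200. Across kept sites Spearman's rho between young width and young enrichment was -0.05. The share over all young sites was not counted. A young site of a single base that was not kept had an enrichment of 4126.

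Most kept sites had no other kept site within 10 kb. With another kept site that close there were 414 (16.7%, 15.2 to 18.2), a larger share than the 11.4% (10.7 to 11.99) of old-only sites without Hdac3 that had a kept site within 10 kb. In the whole old list 39.1% of sites had another old Foxa2 site within 10 kb, in a list with more sites. Joined at gaps of up to 10 kb, the kept sites formed 2068 single sites, 183 pairs, 12 groups of 3 and 3 groups of 4. No group was larger.

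The 3 groups of 4 were of different make-up, and they were singled out after their values were seen. On chromosome 7 between 77660517 and 77670561 the 4 kept sites were all well supported, with old ranks from 137 to 1872 and young ranks from 260 to 1111. They were 173 to 244 bp wide in old and 96 to 135 bp in young liver, with ratios from 1.67 to 1.81, and no other site of the 4 lists lay among them. On chromosome 16 between 22877601 and 22892261 the ranks were spread from 53 to 5272 in the old and from 218 to 5738 in the young list. There an old-only Foxa2 site and an old Hdac3 site lay among the kept sites. On chromosome 11 between 57787274 and 57799962 the best ranks were 1449 and 1227, and no other listed site lay between the 4.

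A group of 3 on chromosome 18 between 65380366 and 65386073 held 1 of the 8 best-ranked sites. Its old ranks ran from 40 to 1285 and its young ranks from 63 to 4713. On chromosome 8 between 121954202 and 121958734 another 3 sites had old ranks from 381 to 932 and young ranks from 411 to 1329. On chromosome 3 between 82853659 and 82856270 a tight group of 2612 bp had old ranks from 301 to 1372 and young ranks from 264 to 1199. Sites of a group often differed in rank, so neighbours were not of equal standing.

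Old-only Foxa2 sites were common near kept sites. Within 10 kb of an old-only site lay 946 kept sites (38.1%, 36.2 to 40.1). Over all old Foxa2 sites without Hdac3, 31.9% had another old-only site that close, and among old-only sites without Hdac3 30.4% did (29.5 to 31.3). A young-only Foxa2 site lay within 10 kb of 224 kept sites (9.02%, 7.93 to 10.2) and of 6.78% of old-only sites without Hdac3 (6.30 to 7.29). Within 500 bp, 4.03% of kept sites had an old-only site (3.29 to 4.88), against 3.43% of old-only sites without Hdac3 (3.08 to 3.80). A young-only site lay within 500 bp of 0.806% of kept sites (0.493 to 1.24) and of 1.20% of those old-only sites (0.992 to 1.43), so the order of the shares turned from that at 10 kb. The intervals of kept and old-only sites did not overlap at 10 kb and overlapped at 500 bp.

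Within 10 kb, Hdac3 sites were infrequent neighbours of kept sites. At 500 bp and at 10 kb their shares near kept and near old-only Foxa2 sites had overlapping intervals. The share near kept sites was the higher one at every distance counted, for young and for old Hdac3. Within 25000 bp a young Hdac3 site lay near 19.7% of kept (18.2 to 21.4) and 17.03% of old-only sites without Hdac3 (16.3 to 17.8). Within 50000 bp an old one lay near 13.98% (12.6 to 15.4) and 11.5% (10.9 to 12.2). Both pairs of intervals were apart, whereas every other pair for young or old Hdac3 overlapped. A young Hdac3 site lay within 10 kb of 267 kept sites (10.8%, 9.57 to 12.04), against 9.72% of all old Foxa2 sites without Hdac3 and 9.46% of the old-only ones (8.90 to 10.1). An old Hdac3 site lay that close to 97 kept sites (3.91%, 3.18 to 4.75), against 3.18% and 3.00% (2.67 to 3.35). With Hdac3 of either age counted, the shares were 13.7% (12.4 to 15.2) of kept and 11.9% (11.3 to 12.6) of old-only sites without Hdac3. Within 500 bp of Hdac3 of either age lay 49 kept sites (1.97%). At that distance a young Hdac3 site was listed for 1.53% of kept sites (1.09 to 2.10) and 1.23% of old-only sites without Hdac3 (1.02 to 1.46). An old one was listed for 0.645% (0.369 to 1.04) and 0.329% (0.226 to 0.461), again with overlapping intervals. The closest were chr8:19784608-19784698, 3 bp from an old Hdac3 site, chr4:139091147-139091350, 11 bp from an old one, and chr9:46064338-46065087, 13 bp from a young one. The last was also the widest kept site, 750 bp in old and 71 bp in young liver.

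**Figure D5:**
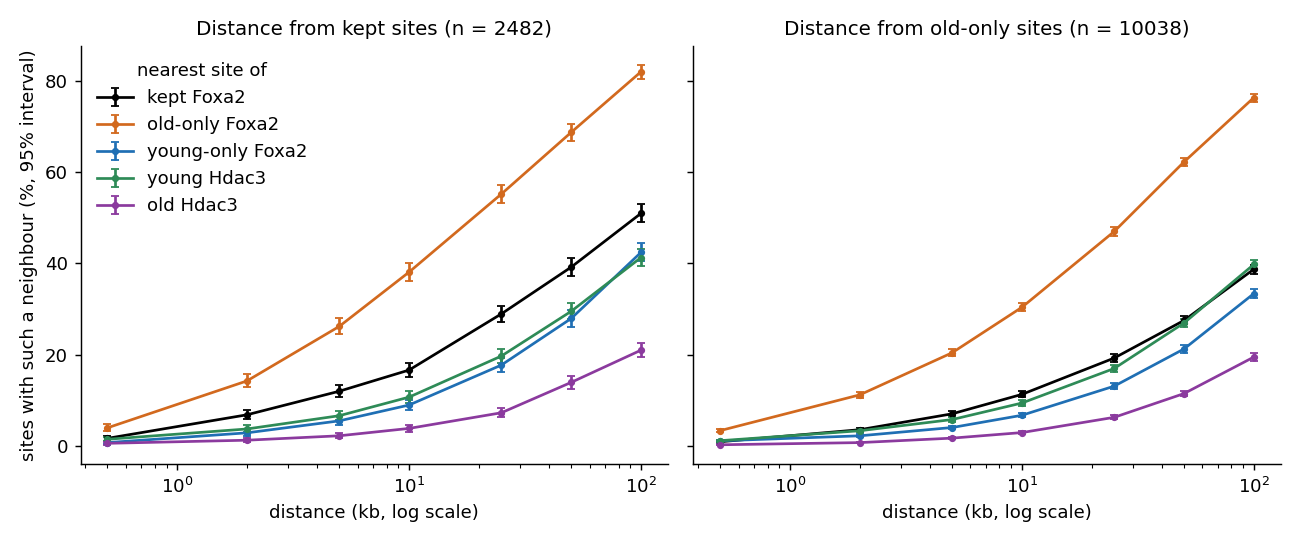
Share of sites (y axis, %, with exact binomial 95% intervals) that have a site of each kind within a given distance (x axis, kb, log scale), for kept sites (left) and for old-only Foxa2 sites without Hdac3 (right). At 10 kb old-only Foxa2 sites are the most frequent neighbours in both panels, 38.1% and 30.4%, and old Hdac3 sites the least frequent, 3.91% and 3.00%.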

How the data were processed

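Values start from 4 site lists, 1 for the 2 libraries of each group, with groups taken from sample titles. The tools named include BWA, and the build is mm9, per the submitters' processing notes. The sources used here do not give the peak caller, control, depth or list threshold. A position is deposited for each site, per the file headers, with a fold enrichment (a ratio made by the authors, its reference not stated) and a q-value. The deposited q-values reach 0.12 in the Foxa2 lists and 0.2 in the Hdac3 lists. No header or label says whether libraries came from separate animals or how they were combined.

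The end was counted in the site, and positions are printed as given, since their origin (0 or 1) is not stated. A kept site with 2 young sites was paired with the one of longer overlap, ties by nearer centre. Distances run from end to begin. The rule was checked with bedtools 2.31.1, which gave the same 2482 sites, and was tested on simulated lists. Named sites are the 8 with the best poorer rank and 3 on each side of the overlap limit; others were chosen after their values were seen, namely the extremes and groups. The sites and gene lists were chosen with earlier results of these data known. The enrichment step was the largest value (1 of 6 common values over a whole number) keeping 90% of the best count of whole multiples up to 60, within 0.0006 plus rounding. Software versions were matplotlib 3.10.9, scipy 1.17.1, pandas 2.3.3, numpy 2.4.6 and Python 3.11.15.

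Planned results on forkhead motifs, gene starts, gene lists and cell type markers were not run, because the gene and promoter tables at hand are of GRCm38 and no coordinates were converted. No sequence is printed for the same reason.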

Additional observations from a re-analysis of the deposited data

How the results depend on the processing

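The number of kept sites stayed within 1.5 times of 2482 under 8 of 10 alternatives, from 2174 with q of at most 0.05 in both Foxa2 lists to 2690 with Hdac3 sites not left out. It was 1096 where the overlap had to cover 50% or more of each site and 953 with q of at most 0.01. The width ratio of 2.05 was 1.48 with 50% overlap, which by construction leaves out pairs of unequal width, and 1.66 with q of at most 0.01; it was 2.05 with q of at most 0.05, 2.05 on autosomes and 2 as a ratio of medians, above 1 in each. The share with another kept site within 10 kb (16.7%) was 14.7% with q of at most 0.05, and 12.05% at 5 kb and 29.0% at 25 kb, which follows from the distance. With 50% overlap, 92.2% of kept sites were wider in the old list. The young list drawn first gave 2509 sites, and an end not counted in the site 2463. Alternatives on autosomes, the site end, the young list, the width ratio at 0.01, the shares of wider and nested sites, the distance of centres and the enrichment step were chosen after seeing the data. With a share of 0.8 in place of 0.9 for the step, 39.2% of old and 46.0% of young values were multiples. Alternatives for motifs, gene starts and gene lists were not run. No replicate could be left out. No paired analysis was possible because each group has 1 list for its 2 libraries.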
